A study of Homo sapiens with 10 samples.

Results

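The cholesterol efflux genes described here are ABCA1, ABCG1, APOE, APOC1, NR1H2, NR1H3, MYLIP, SCARB1 and NPC1. These 9 genes were taken by symbol from the 52402 symbols of the count files, and each had a single row. APOE was chosen by its higher counts in the miR-3124-5p mimic libraries than in the control libraries, so its values in either group are set against others without a test. BEAS2B, an immortalised human bronchial epithelial cell line, was transfected with a Lipofectamine reagent in every group, and mRNA was sequenced after 48 h. There were 5 groups of 2 libraries each: the scrambled control (miRcontrol), miR3124_mimic, miR200b_mimic, miR92b_inhibitor and a mixture of the 2 mimics and the inhibitor (3-miRNA mixed group). The control and the 3 single transfections received 50 nM of oligonucleotide, whereas the amounts in the mixture were not given. A mimic supplies a miRNA in excess, and an inhibitor is an antisense strand that blocks one. The line stands for 1 cell line only, and whether the 2 libraries of a group came from separate transfections was not stated, so p-values measure the spread between these libraries, which may be technical.

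Cells that cannot break down the sterol ring remove surplus cholesterol by efflux. ABCA1 and ABCG1 are membrane transporters that pass cholesterol and phospholipid to particles outside the cell, and apolipoprotein E, the APOE product, is one of the acceptors that carries it away. The liver X receptors LXRα (NR1H3) and LXRβ (NR1H2) are nuclear receptors that sense oxysterols and switch on ABCA1, ABCG1, APOE, APOC1, MYLIP and NR1H3 itself together with their partner RXR. MYLIP, also called IDOL, is a ubiquitin ligase that marks lipoprotein receptors for degradation. SCARB1 is the HDL receptor SR-BI, and NPC1 moves cholesterol out of late endosomes and lysosomes.

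The mature strands, credited to RefSeq (GRCh38.p14), are shown because the seed, bases 2 to 8 in capitals, is the part of a miRNA that pairs with a target. The inhibitor's label names miR-92b without an arm, so both arms are given. None of the 4 strands that could act here share a seed.
miR-3124-5p, chr1:248826383-248826403, plus strand: uUCGCGGGcgaaggcaaaguc
miR-200b-3p, chr1:1167160-1167181, plus strand: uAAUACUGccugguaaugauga
miR-92b-5p, chr1:155195196-155195217, plus strand: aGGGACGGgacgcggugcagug
miR-92b-3p, chr1:155195237-155195258, plus strand: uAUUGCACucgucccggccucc
The reverse complement of each seed was searched in the annotated 3′ UTR, taking for each gene its longest coding transcript (GENCODE v29, GRCh38, sense strand only). CCCGCGA of miR-3124-5p was in 0.617% of 19132 genes and in none of the 9. CCGTCCC of miR-92b-5p was in 3.75% of genes and also in none of the 9. CAGTATT of miR-200b-3p was in 16% of genes and occurred once each in SCARB1 and NPC1, and it was not found in ABCA1. GTGCAAT of miR-92b-3p was in 10.8% of genes and occurred once each in MYLIP and SCARB1. The 2 windows with the miR-200b-3p word are printed because both genes were lower in the miR200b_mimic libraries, and the capitals mark the word.
NPC1, chr18:23532011-23532040, minus strand: agttgacttgggaagCAGTATTactagatc
SCARB1, chr12:124777090-124777119, minus strand: atgagaccatttcatCAGTATTtaagtgtg
The SCARB1 word lay in 1 of 5 annotated coding transcripts and the NPC1 word in 2 of 6. SCARB1 was lower than miRcontrol in all 4 other groups, and its log2 change was smallest in miR200b_mimic (-0.22). MYLIP and SCARB1, which hold the miR-92b-3p word, changed by -0.05 and -0.35 in miR92b_inhibitor, and those windows are not printed. These matches describe letters in the annotated sequence, and binding was not measured.

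In the miRcontrol libraries the 9 genes covered a wide range of levels. Levels are given as normalized CPM, the read count scaled to the size of the library. Per kilobase of merged exon sequence, the mean was 18.6 CPM per kb for NPC1, 16.8 for NR1H2 and 8.94 for SCARB1. MYLIP followed at 1.90 and ABCA1 at 1.35, and then APOE at 0.508, APOC1 at 0.454, NR1H3 at 0.328 and ABCG1 at 0.0762. NPC1, NR1H2 and SCARB1 were thus the most abundant of the 9 for their length, and ABCG1 the least. All other levels below are CPM per gene without length correction. ABCG1 and APOC1 each reached the limit of the filter on low counts, 0.571 CPM, in 6 libraries. Only in miR3124_mimic and the 3-miRNA mixed group did both libraries reach it. Their counts were between 4 and 45 per library. Their entry thus drew mostly on the groups where they are high. The adjusted p-values of ABCG1 and APOC1 are therefore taken from the fit with no filter on low counts, and both are left out of the counts of genes. Where a p-value with the filter is printed beside for either gene, it is a description. The log2 changes, standard errors and intervals of both genes are from the filtered fit, so they do not belong to the p-values with no filter.

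**Figure D1:**
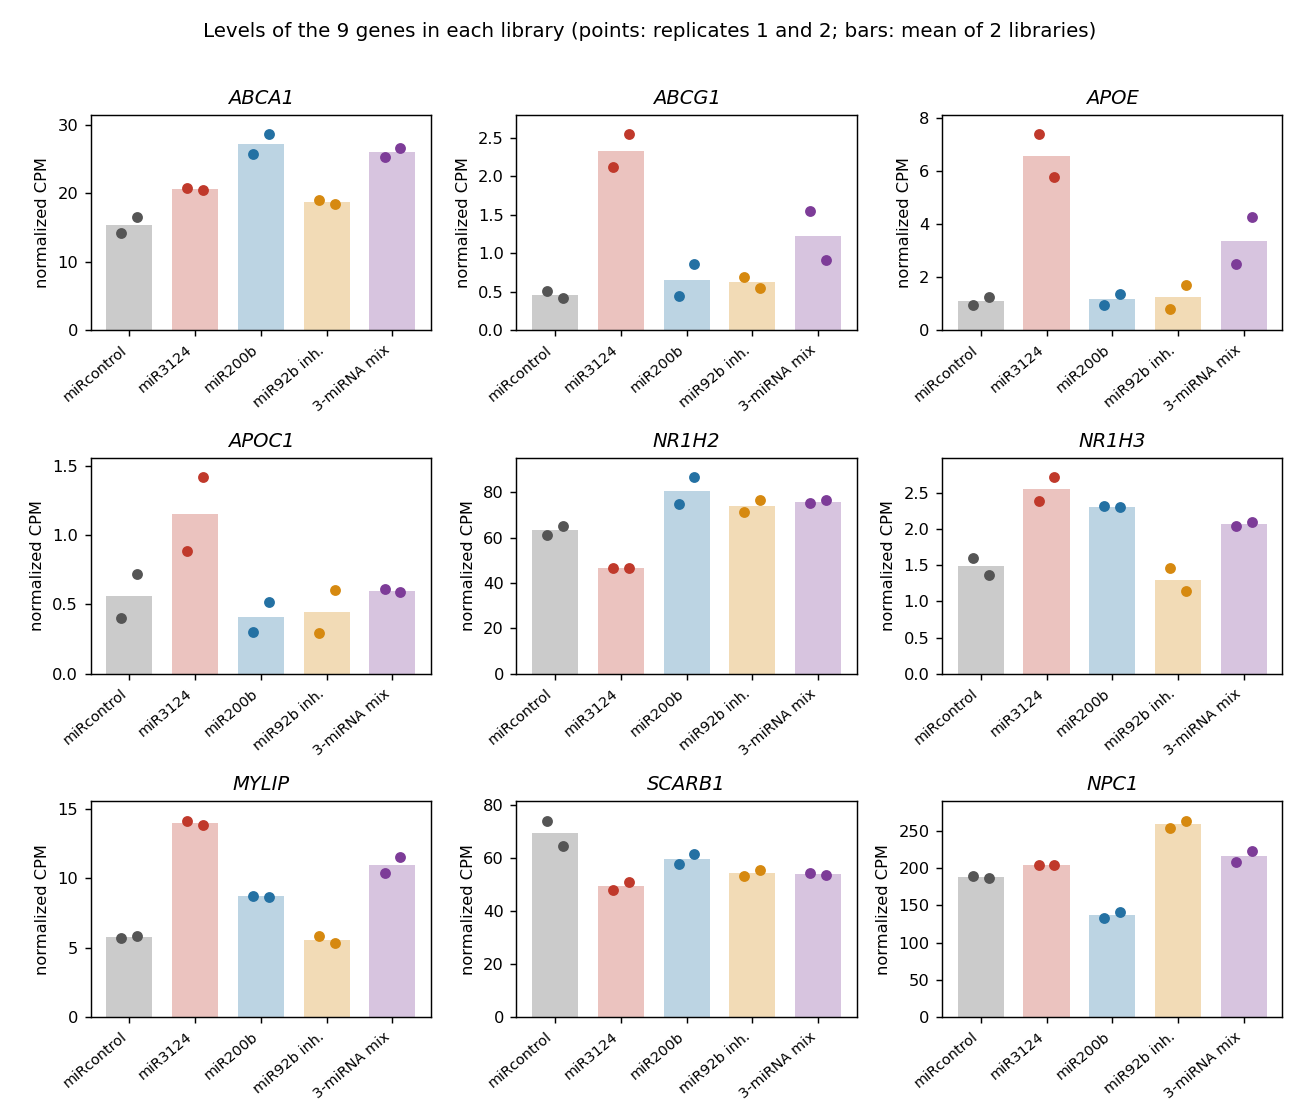
Normalized CPM of each gene (linear axes from 0, own scale in each panel) in the 5 groups, with points for the 2 libraries and bars for their mean. APOE, ABCG1 and MYLIP are highest in the miR3124_mimic libraries, ABCA1 is highest with miR200b_mimic, and NPC1 is lowest with miR200b_mimic and highest with miR92b_inhibitor.

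APOE, at chr19:44905754-44909393 on the plus strand (GRCh38), encodes a ligand of lipoprotein receptors. Its level was 7.38 and 5.77 CPM in the miR3124_mimic libraries and 0.973 and 1.25 CPM in the miRcontrol libraries. The 3-miRNA mixed group lay in between with 2.49 and 4.25 CPM, whereas miR200b_mimic had 0.972 and 1.38 CPM and miR92b_inhibitor 0.817 and 1.70 CPM. No other group overlapped miR3124_mimic or the mixture, and the remaining 3 groups overlapped each other. These levels rest on 102 and 108 counts per library in miR3124_mimic and on 13 to 31 counts in the 3 low groups. The log2 difference between miR3124_mimic and miRcontrol was 2.55 ± 0.29 (SE), or 5.85-fold, and it is a description, because this difference chose the gene.

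In the comparisons that used neither the miR3124_mimic nor the miRcontrol libraries, APOE in the 3-miRNA mixed group exceeded miR200b_mimic by 1.49 ± 0.32 on the log2 scale (edgeR quasi-likelihood test, adjusted p = 0.000158) and miR92b_inhibitor by 1.41 ± 0.30 (adjusted p = 0.000173). Against miRcontrol, whose libraries helped to pick the gene, the differences are descriptions. They were 1.60 ± 0.31 in the mixture, 0.11 in miR200b_mimic (95% confidence interval -0.69 to 0.91) and 0.19 in miR92b_inhibitor (-0.57 to 0.95), and the last 2 intervals leave room for a change of close to 2-fold. APOE in the mixture was 0.95 ± 0.23 lower on the log2 scale than in miR3124_mimic, and this value moved between -0.62 and -1.39 when either mixture library was left out. Of the other plasma apolipoprotein genes, APOB, APOC3, APOC4 and APOD had 0 counts in all 10 libraries, which does not exclude a low level.

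APOC1 lies next to APOE, at chr19:44914247-44919349, and encodes a small apolipoprotein that exchanges between particles. APOC1 shares 532 exon bases with another annotated gene on the same strand, so reads there cannot be told apart. It had 0.888 and 1.41 CPM in miR3124_mimic, 0.401 and 0.716 CPM in miRcontrol, 0.608 and 0.592 CPM in the 3-miRNA mixed group, 0.292 and 0.602 CPM in miR92b_inhibitor, and 0.299 and 0.518 CPM in miR200b_mimic. Both miR3124_mimic libraries were above the others, although the gap to the second miRcontrol library was small. The difference from miRcontrol was 1.06 (0.08 to 2.04) and missed the threshold with an adjusted p of 0.0799 in the fit with no filter. Between the single transfections APOC1 was higher in miR3124_mimic than in miR200b_mimic by 1.46 ± 0.53 (adjusted p = 0.0133 with no filter) and than in miR92b_inhibitor by 1.36 ± 0.50 (adjusted p = 0.0162 with no filter). In the filtered fits both calls were lost, and here and below a bare value in parentheses after a lost call is its adjusted p, without the second miR3124_mimic library (0.22 and 0.252), without the first miR200b_mimic library (0.131) or the first miR92b_inhibitor library (0.2) respectively, and with DESeq2 (0.0848 and 0.102).

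Of the other 10 genes next to APOE and APOC1 on the chromosome, 6 were tested. TOMM40, the mitochondrial import channel gene beside APOE, fell by 0.21 on the log2 scale in miR3124_mimic (adjusted p = 9.35e-05). NECTIN2, an adhesion receptor, rose by 0.83 (adjusted p = 1.46e-19), and RELB, an NF-κB subunit, fell by 1.03 (adjusted p = 4.45e-09). All 6 passed the test there, 4 higher and 2 lower, beside 51% of all genes tested. RELB rose in each of the other groups, by 1.23, 1.01 and 0.90. The neighbours therefore did not share 1 direction with APOE in the miR3124_mimic libraries.

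ABCA1, at chr9:104781002-104928237 on the minus strand, was higher than miRcontrol in all 4 other groups. Its level was 14.2 and 16.5 CPM in miRcontrol, 19.0 and 18.4 CPM in miR92b_inhibitor, 20.8 and 20.5 CPM in miR3124_mimic, 25.3 and 26.7 CPM in the 3-miRNA mixed group, and 25.7 and 28.7 CPM in miR200b_mimic. The miRcontrol libraries were the 2 lowest of the 10, and the miR200b_mimic and mixture libraries overlapped at the top. ABCA1 rose by 0.83 ± 0.10 in miR200b_mimic (1.78-fold, adjusted p = 5.10e-10), by 0.76 ± 0.09 in the mixture (1.69-fold, adjusted p = 2.94e-09) and by 0.43 ± 0.10 in miR3124_mimic (1.35-fold, adjusted p = 0.00028). The rise of 0.29 ± 0.10 with miR92b_inhibitor (adjusted p = 0.0204) was the smallest and lost its call without the first miRcontrol library (0.18, adjusted p = 0.295), without the first (0.103) or the second (0.0528) miR92b_inhibitor library, and with DESeq2 (0.0822).

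In the order of ABCA1 levels, miR200b_mimic and the mixture did not differ beyond their spread (-0.07, -0.24 to 0.10, adjusted p = 0.567), nor did miR3124_mimic and miR92b_inhibitor (0.14, -0.05 to 0.33, adjusted p = 0.2). The step from the mixture down to miR3124_mimic was 0.33 ± 0.09 (adjusted p = 0.00175), and miR200b_mimic exceeded miR92b_inhibitor by 0.55 ± 0.09 (adjusted p = 1.92e-06). ABCA1 thus had its upper pair of groups in the libraries that received the miR-200b mimic, and APOE had its upper pair in those that received the miR-3124 mimic. The study's discussion cites reports in which miR-200b-3p lowers cassette subfamily A member 1 (printed as ABAC1), here read as ABCA1. The cells and measures of those reports were not compared with these libraries.

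ABCA1 is a textbook target of miR-33a and miR-33b, whose hairpins lie in introns of SREBF2 and SREBF1. Their shared seed word CAATGCA was in 8.31% of the 3′ UTRs, and it occurred 4 times in that of ABCA1 and once in that of NPC1. A window from the ABCA1 cluster and the one in NPC1 are printed below the miRNA, with the seed or its match in capitals.
miR-33a-5p, chr22:41900949-41900969, plus strand: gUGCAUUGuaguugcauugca
ABCA1, chr9:104784161-104784190, minus strand: tgatactattcaatgCAATGCAattcaatg
NPC1, chr18:23531866-23531895, minus strand: tctgtaaaggccaatCAATGCActgtctgt
Mature miRNAs were not measured in these libraries. The host gene SREBF2 had 177 and 182 CPM in miRcontrol and 110 and 103 CPM in miR92b_inhibitor, a fall by 0.75 on the log2 scale (adjusted p = 4.15e-18), and it rose by 0.32 in miR3124_mimic (adjusted p = 1.87e-08). The host gene SREBF1 fell in all 4 groups, between -0.15 in miR200b_mimic (adjusted p = 0.0396) and -1.02 in miR92b_inhibitor (adjusted p = 1.51e-17).

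The promoter of ABCA1 is printed because it holds the only match to the LXR element found here. An LXR and RXR pair binds 2 copies of AGGTCA spaced by 4 bases (DR4). With up to 2 mismatches over the 12 defined letters, and on both strands, this pattern was in 2.34% of 35116 promoter windows of 300 bases (250 before to 50 after the start, RefSeq, GRCh38.p14). Among the 7 of 9 genes with a window, only ABCA1 had a match. It lies on the reverse strand, starts 69 bases before the transcription start and is in capitals.
ABCA1 promoter, chr9:104928106-104928405, minus strand: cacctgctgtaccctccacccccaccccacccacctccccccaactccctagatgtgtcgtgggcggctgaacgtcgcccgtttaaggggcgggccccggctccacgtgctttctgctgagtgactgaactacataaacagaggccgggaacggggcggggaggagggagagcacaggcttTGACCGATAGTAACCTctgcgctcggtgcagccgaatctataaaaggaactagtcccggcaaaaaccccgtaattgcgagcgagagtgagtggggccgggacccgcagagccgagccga
The windows of APOE, APOC1, MYLIP, NPC1, NR1H2 and NR1H3 did not hold these letters, which says nothing about elements elsewhere, and receptor binding was not measured.

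ABCG1, at chr21:42199689-42297244 on the plus strand, passes cholesterol to HDL particles and was close to the limit of detection. It had 2.12 and 2.55 CPM in miR3124_mimic and 1.55 and 0.915 CPM in the 3-miRNA mixed group, compared with 0.515 and 0.418 CPM in miRcontrol. In miR200b_mimic it had 0.449 and 0.863 CPM and in miR92b_inhibitor 0.700 and 0.547 CPM. The miR3124_mimic libraries stood above all others, and those of the mixture above the remaining groups by a small gap. ABCG1 rose by 2.31 ± 0.43 in miR3124_mimic (4.95-fold, adjusted p = 3.61e-08 with no filter and 1.14e-05 with the filter). In the mixture it rose by 1.38 ± 0.47 (2.60-fold, adjusted p = 0.00725 with no filter and 0.0143 with the filter). In the filtered fits the call in the mixture was lost without its first library (0.96, adjusted p = 0.217), without the second miRcontrol library (0.0931) and with DESeq2 (0.0581). The changes in miR200b_mimic (0.53, -0.55 to 1.61) and miR92b_inhibitor (0.41, -0.67 to 1.48) did not pass, and their intervals were wide.

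The 2 liver X receptors differed. NR1H2, at chr19:50329653-50382982 on the plus strand, had 46.6 and 46.7 CPM in miR3124_mimic, 61.1 and 65.2 CPM in miRcontrol, 71.3 and 76.7 CPM in miR92b_inhibitor, 75.2 and 76.5 CPM in the mixture and 75.0 and 86.5 CPM in miR200b_mimic. The miR3124_mimic libraries were the lowest of the 10, and no library of the other 3 transfected groups was as low as miRcontrol. NR1H2 fell by 0.43 on the log2 scale in miR3124_mimic (adjusted p = 1.27e-07). It rose in miR200b_mimic by 0.36 ± 0.06 (adjusted p = 1.70e-06), in the mixture by 0.27 ± 0.06 (adjusted p = 0.000201) and in miR92b_inhibitor by 0.23 ± 0.06 (adjusted p = 0.00159). The last of these lost its call without the first miRcontrol library (0.0543) or the second miR92b_inhibitor library (0.0662).

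NR1H3, at chr11:47248300-47269032 on the plus strand, was much less abundant. It had 1.60 and 1.37 CPM in miRcontrol, 1.46 and 1.15 CPM in miR92b_inhibitor, 2.39 and 2.72 CPM in miR3124_mimic, 2.32 and 2.30 CPM in miR200b_mimic and 2.05 and 2.10 CPM in the mixture. Both mimic groups and the mixture were above miRcontrol and miR92b_inhibitor in every library. The rise of 0.78 ± 0.30 in miR3124_mimic passed the test (adjusted p = 0.0255), and it lost its call with DESeq2 (0.107), without either miRcontrol library (0.0514 and 0.132) and without the second miR3124_mimic library (0.154). The changes of 0.63 (0.01 to 1.24) in miR200b_mimic and 0.47 (-0.13 to 1.08) in the mixture did not pass. NR1H3 was higher than in miR92b_inhibitor in both mimic groups, by 0.97 ± 0.30 with miR-3124 (adjusted p = 0.00509) and 0.82 ± 0.31 with miR-200b (adjusted p = 0.0242). These 2 calls were lost without the second miR92b_inhibitor library (0.0609 and 0.158). The first was also lost without the second miR3124_mimic library (0.0555), and the other without either miR200b_mimic library (0.0653 and 0.0848) and with DESeq2 (0.0956). NR1H3 shares 189 exon bases with ACP2 on the opposite strand, and the strand setting of the counting was not given.

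MYLIP, at chr6:16129125-16148248 on the plus strand, differed in steps between the groups. Its level was 14.1 and 13.8 CPM in miR3124_mimic, 10.3 and 11.5 CPM in the mixture, 8.75 and 8.63 CPM in miR200b_mimic, 5.67 and 5.85 CPM in miRcontrol and 5.84 and 5.31 CPM in miR92b_inhibitor. The first 3 groups did not overlap each other or the last 2, which overlapped. MYLIP rose by 1.28 ± 0.14 in miR3124_mimic (2.42-fold, adjusted p = 3.34e-11), by 0.92 ± 0.14 in the mixture (1.90-fold, adjusted p = 2.59e-07) and by 0.59 ± 0.15 in miR200b_mimic (1.51-fold, adjusted p = 0.000954). With miR92b_inhibitor the difference was -0.05 (-0.36 to 0.27).

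**Figure D2:**
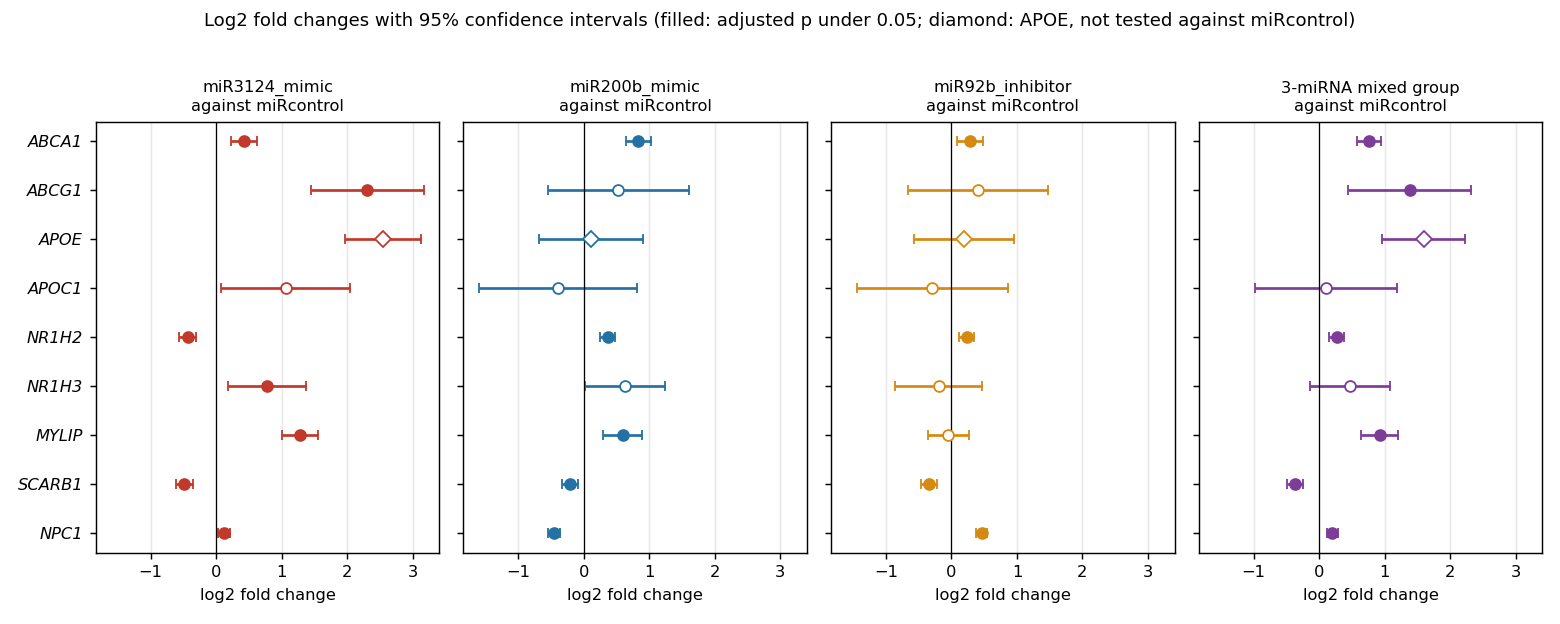
Log2 fold change of each gene against miRcontrol (x axis) in the 4 transfected groups, with 95% confidence intervals from the edgeR fit. Filled points passed an adjusted p of 0.05, and the open diamonds are APOE, which was not tested against miRcontrol. For ABCG1 and APOC1 the fill comes from the filtered fit and is a description. ABCG1 and APOC1 have the widest intervals, and SCARB1 is the gene that lies below 0 in all 4 panels.

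SCARB1, at chr12:124776856-124882668 on the minus strand, was highest in miRcontrol, with 73.9 and 64.5 CPM. It had 57.7 and 61.3 CPM in miR200b_mimic, 53.2 and 55.4 CPM in miR92b_inhibitor, 54.1 and 53.3 CPM in the mixture and 47.9 and 50.8 CPM in miR3124_mimic. No library of another group reached either miRcontrol library. SCARB1 fell by 0.49 on the log2 scale in miR3124_mimic (adjusted p = 5.54e-09), by 0.37 in the mixture (adjusted p = 2.02e-06), by 0.35 in miR92b_inhibitor (adjusted p = 7.91e-06) and by 0.22 in miR200b_mimic (adjusted p = 0.00361). The last of these lost its call without the first miRcontrol library (-0.11, adjusted p = 0.263) or the first miR200b_mimic library (0.0629).

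NPC1, at chr18:23506184-23586898 on the minus strand, moved in opposite directions in 2 single transfections. It had 189 and 187 CPM in miRcontrol, 133 and 141 CPM in miR200b_mimic and 254 and 264 CPM in miR92b_inhibitor. In miR3124_mimic both libraries had 205 CPM, and the mixture had 208 and 224 CPM. The 5 groups did not overlap. NPC1 fell by 0.45 on the log2 scale in miR200b_mimic (0.730 of miRcontrol, adjusted p = 4.63e-12) and rose by 0.46 ± 0.04 in miR92b_inhibitor (1.38-fold, adjusted p = 1.20e-12). It rose by 0.20 ± 0.04 in the mixture (adjusted p = 9.39e-05). The rise of 0.12 ± 0.04 in miR3124_mimic (adjusted p = 0.0147) lost its call without any 1 of the 4 libraries compared (0.0506 to 0.0976). NPC1 shares 604 exon bases with RMC1 on the opposite strand, so without the strand setting reads there cannot be told apart.

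The 6 genes other than APOE, ABCG1 and APOC1 were counted together against miRcontrol. In miR3124_mimic 6 of 6 passed, 4 higher and 2 lower, beside 51% of the 14884 genes tested. Of these 6, NPC1 and NR1H3 both lost their calls without either miRcontrol library and without the second miR3124_mimic library. In miR200b_mimic 5 of 6 passed (3 higher, 2 lower, background 40.6%), in miR92b_inhibitor 4 of 6 (3 higher, 1 lower, background 35.7%) and in the mixture 5 of 6 (4 higher, 1 lower, background 42.7%). Over all genes tested, 25.7% were higher and 25.3% lower in miR3124_mimic, 21.4% and 19.1% with the miR-200b mimic, 17.5% and 18.2% with the inhibitor, and 21.5% and 21.1% in the mixture. The count in miR92b_inhibitor fell to 2 without the first miRcontrol library or the second miR92b_inhibitor library. A change of at least 2-fold was reached by MYLIP in miR3124_mimic (background 8.13%) and by none of the 6 in the mixture (4.67%), miR200b_mimic (4.88%) or miR92b_inhibitor (1.91%). The 4 comparisons share their control libraries, and the shares called among these chosen genes are descriptions.

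In the 3-miRNA mixed group the question was how the genes stood relative to each transfection alone. Against miR3124_mimic, 3 of the 6 genes passed (background 49.1%). NR1H2 was higher by 0.70 ± 0.06 (adjusted p = 2.14e-13) and ABCA1 by 0.33 ± 0.09, while MYLIP was lower by 0.35 (adjusted p = 0.0125). ABCG1, outside the 6, was lower by 0.93 (adjusted p = 0.0199 with no filter). The ABCG1 and MYLIP calls were lost with DESeq2 (0.15 and 0.096), ABCG1 also without the second miR3124_mimic (0.19) or the second mixture library (0.28), and MYLIP without the first miR3124_mimic (0.0616) or the first mixture library (0.127). Against miR200b_mimic, 2 of 6 passed (background 38.6%), both higher in the mixture: NPC1 by 0.65 ± 0.04 (adjusted p = 4.35e-17) and MYLIP by 0.33 ± 0.13 (adjusted p = 0.0396). The MYLIP call was lost in 5 of the alternatives, among them DESeq2 (0.165) and the omission of the second mixture library (0.257). Against miR92b_inhibitor, 3 of 6 passed (background 39.6%): MYLIP (0.97 ± 0.14, adjusted p = 1.04e-07) and ABCA1 (0.48 ± 0.09, adjusted p = 2.42e-05) were higher, and NPC1 was lower by 0.26 (adjusted p = 6.66e-07).

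Between the single transfections, 5 of the 6 genes differed between miR3124_mimic and miR200b_mimic (background 57.8%), 4 of 6 between miR3124_mimic and miR92b_inhibitor (58.8%) and 4 of 6 between miR200b_mimic and miR92b_inhibitor (50.5%). NPC1 had the most certain of these differences, being lower in miR200b_mimic than in miR92b_inhibitor by 0.91 (adjusted p = 4.16e-23). ABCG1 was higher in miR3124_mimic than in miR200b_mimic by 1.78 ± 0.41 (adjusted p = 1.21e-05 with no filter) and than in miR92b_inhibitor by 1.90 ± 0.40 (adjusted p = 1.55e-06 with no filter). With the filter, the adjusted p-values were 0.000222 for miR200b_mimic and 7.14e-05 for miR92b_inhibitor. MYLIP was higher in miR3124_mimic than in these 2 groups by 0.68 ± 0.13 and 1.33 ± 0.14 (adjusted p = 1.04e-05 and 8.01e-12).

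The mixture was also set against the sum of the 3 single log2 changes, which is what effects that add on the log2 scale would give. For 3 of the 6 genes the departure from the sum passed the test (background 21.7%). ABCA1 changed by 0.76 in the mixture and by 1.54 in the sum, a departure of -0.78 ± 0.19 (adjusted p = 0.00194). MYLIP changed by 0.92 against a sum of 1.82 (departure -0.90 ± 0.29, adjusted p = 0.0201), and SCARB1 by -0.37 against a sum of -1.05 (departure 0.69 ± 0.12, adjusted p = 2.51e-05). Each of these 3 changed less in the mixture than in the sum. Without the first miRcontrol library only SCARB1 passed, since ABCA1 and MYLIP then had adjusted p of 0.101 and 0.11. MYLIP also lost its call without the second miRcontrol library (0.0724), without the first miR92b_inhibitor library (0.0515) and with DESeq2 (0.0875). For NPC1, where single changes of opposite sign add to 0.13, the mixture showed 0.20, and the departure of 0.07 (-0.10 to 0.24) did not pass. For APOE the mixture showed 1.60 and the sum 2.85, given without a test. Because the amount of each oligonucleotide in the mixture was not stated, dose and combination cannot be told apart.

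**Figure D3:**
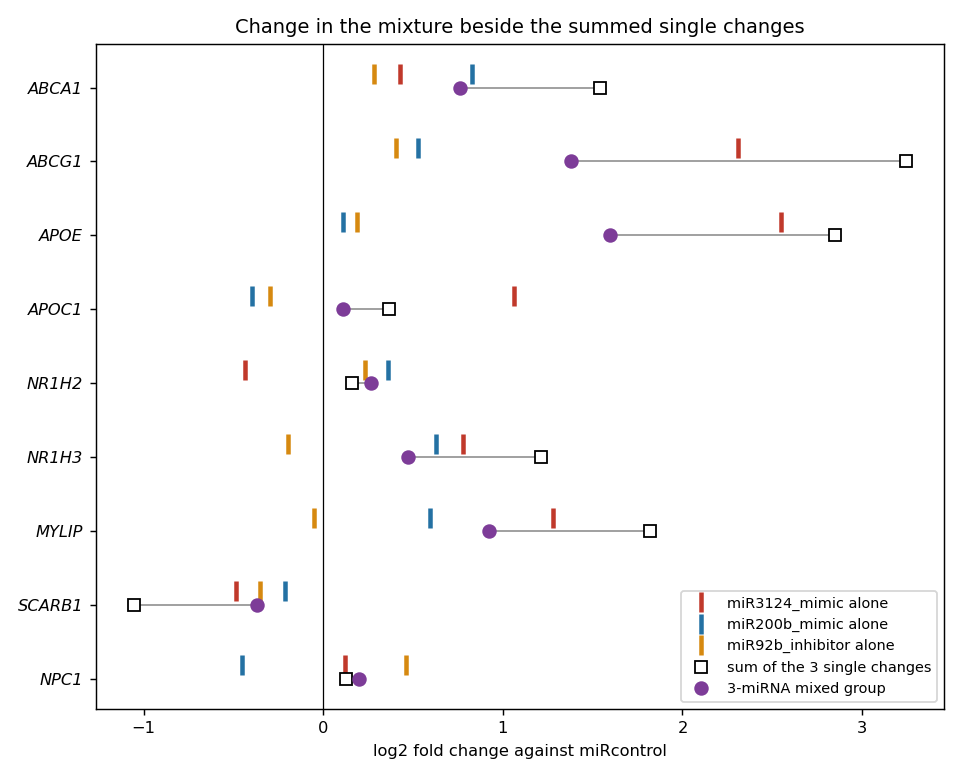
Log2 fold change against miRcontrol (x axis) for each gene in the single transfections (ticks), their sum (open squares) and the 3-miRNA mixed group (filled circles). For ABCA1, ABCG1, APOE, MYLIP, NR1H3 and SCARB1 the circle lies nearer to 0 than the square, and for NPC1 and NR1H2 the 2 nearly coincide.

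The pathway around these genes was described with lists that leave the 9 genes out. Of the other 13 LXR targets, 8 were tested, and they did not move as 1 block. In miR3124_mimic 1 rose and 3 fell. ABCG4, a transporter related to ABCG1, was the one that rose (0.93, adjusted p = 0.0428, at 27 and 29 counts against 14 and 17). SCD, the stearoyl-CoA desaturase, fell by 0.51 and SREBF1 by 0.43. In miR92b_inhibitor 1 rose and 4 fell. SCD went from 765 and 856 CPM in miRcontrol to 312 and 267 CPM there, a fall by 1.49 on the log2 scale (adjusted p = 2.70e-28). In the mixture 4 fell and none rose, beside 2 and 2 in miR200b_mimic. The share called was 50% in miR3124_mimic, near the 51% of all genes tested. It was 50% in miR200b_mimic (background 40.6%), 62.5% in miR92b_inhibitor (35.7%) and 50% in the mixture (42.7%).

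Among 9 tested RXR partners and coregulators, the coactivator gene NCOA3 rose by 0.69 on the log2 scale in miR3124_mimic (adjusted p = 1.33e-16), and RXRA, the partner of both LXRs, fell by 0.33 there and by 0.35 in the mixture. In all, 4 of 9 rose and 2 fell in miR3124_mimic (background called 51%). The numbers were 1 and 3 in the mixture (42.7%), 2 and 2 for the miR-200b mimic (40.6%), and 0 and 2 for the inhibitor (35.7%). Of the enzymes that make or use up oxysterols, CH25H and CYP7B1 had 0 counts in all 10 libraries. CYP27A1, the sterol 27-hydroxylase, had 8.19 and 8.65 CPM in miRcontrol and fell by 0.66 in miR92b_inhibitor (adjusted p = 0.000597) and by 0.73 in the mixture (adjusted p = 0.000109). Over the 5 tested enzymes, which include the last steps of cholesterol synthesis, 1 rose and 2 fell in miR3124_mimic, and 1 rose and 4 fell in the mixture. None rose and 4 fell with the inhibitor, while 2 rose and 1 fell with the miR-200b mimic. CYP11A1 was the one that rose in miR3124_mimic and in the mixture, and the one that fell with the miR-200b mimic. It passed the filter only through miR3124_mimic and the mixture, so its calls are descriptions. No other of the 5 enzymes rose in those groups or fell with the miR-200b mimic.

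Of 24 tested genes of sterol synthesis and its sensors, none rose and 22 fell in miR92b_inhibitor, and none rose and 20 fell in the mixture, beside 35.7% and 42.7% of all genes called there. INSIG1, which retains the SREBP precursor, fell by 1.04 on the log2 scale in miR92b_inhibitor (adjusted p = 1.03e-19), and STARD4, a sterol carrier, fell there by 1.06. In miR200b_mimic 10 of the 24 rose and 3 fell (background called 40.6%), and in miR3124_mimic 6 rose and 8 fell (51%). Some genes of this list, among them STARD4 and DHCR7, stand in another list as well.

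Of the 5 genes of ester storage tested, 3 fell with the miR-3124 mimic. SOAT1, which esterifies cholesterol for storage, had 188 CPM in both miRcontrol libraries, 64.5 and 64.6 CPM in miR3124_mimic and 92.3 and 94.8 CPM in the mixture. It fell by 1.54 (adjusted p = 1.25e-30) and by 1.01 (adjusted p = 2.44e-24). NCEH1, an ester hydrolase, fell by 1.12 in miR200b_mimic (adjusted p = 6.61e-27), and PLIN2, a lipid droplet coat gene, rose by 0.72 in miR92b_inhibitor (adjusted p = 4.55e-15). In all, 0 rose and 3 fell in either mimic group (background called 51% and 40.6%). With the inhibitor 2 rose and 1 fell (35.7%), and in the mixture 1 rose and 3 fell (42.7%).

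Among the other 9 lipoprotein receptor genes tested, LRP1, a receptor that binds apolipoprotein E, rose by 0.62 in miR3124_mimic (adjusted p = 9.79e-19) and fell by 1.06 in miR200b_mimic (adjusted p = 1.08e-25). LRP8 and VLDLR, which bind the same ligand, rose in miR3124_mimic by 0.53 and 0.66 and fell in miR200b_mimic by 0.71 and 0.57. LSR, the lipolysis-stimulated receptor, rose by 1.40 in miR200b_mimic and by 1.06 in the mixture. In miR92b_inhibitor 8 of 9 fell and none rose (background called 35.7%), and in the mixture 7 fell and 1 rose (42.7%). In miR3124_mimic 5 rose and 3 fell (51%), and in miR200b_mimic 4 rose and 5 fell (40.6%).

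The 7 other lipid ABC transporters tested included ABCA2 and ABCA3, relatives of ABCA1. ABCA2 rose by 0.77 in miR3124_mimic (adjusted p = 1.32e-11) and fell by 0.78, 0.74 and 0.45 in the other groups. ABCA3 rose by 0.56 and fell by 0.87, 1.15 and 1.05. ABCA7 rose, as ABCA1 did, in miR200b_mimic (by 0.99), in the mixture (0.73) and in miR3124_mimic (0.56), but it fell by 0.62 in miR92b_inhibitor. In miR3124_mimic 5 rose and 1 fell (background called 51%). In miR200b_mimic, miR92b_inhibitor and the mixture 1, 0 and 1 rose and 4, 5 and 4 fell (40.6%, 35.7% and 42.7%). The list of other apolipoprotein and HDL genes had 7 genes tested, among them SNTB2, which is not an apolipoprotein gene. Of the 7, 5 rose and none fell in miR3124_mimic. Those 5 included CLU, which encodes the lipid carrier clusterin (1.35, adjusted p = 5.76e-23), APOL1 (1.05, adjusted p = 1.03e-08) and SNTB2 (0.12, adjusted p = 0.0143). In miR92b_inhibitor 0 rose and 4 fell, in miR200b_mimic 2 rose and 1 fell, and in the mixture 3 rose and 1 fell. The backgrounds of these counts are those given for the transporters.

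Of 14 other genes of lysosomal egress and sterol transfer, the cholesterol transporter gene GRAMD1C rose by 1.52 in miR3124_mimic (adjusted p = 1.42e-07) and STARD3, which tethers endosomes to the endoplasmic reticulum, fell by 1.06 (adjusted p = 9.77e-14). GRAMD1B rose in all 4 groups, between 0.21 in miR92b_inhibitor and 0.92 in the mixture. NPC2, the partner of NPC1 in the lysosome, differed from it: it fell by 0.28 in miR92b_inhibitor (adjusted p = 2.13e-05), where NPC1 rose. In the list 5 rose and 3 fell in miR3124_mimic (background called 51%), and 4 rose and 9 fell in the mixture (42.7%). With the inhibitor 2 rose and 6 fell (35.7%), and with the miR-200b mimic 5 rose and 2 fell (40.6%).

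**Figure D4:**
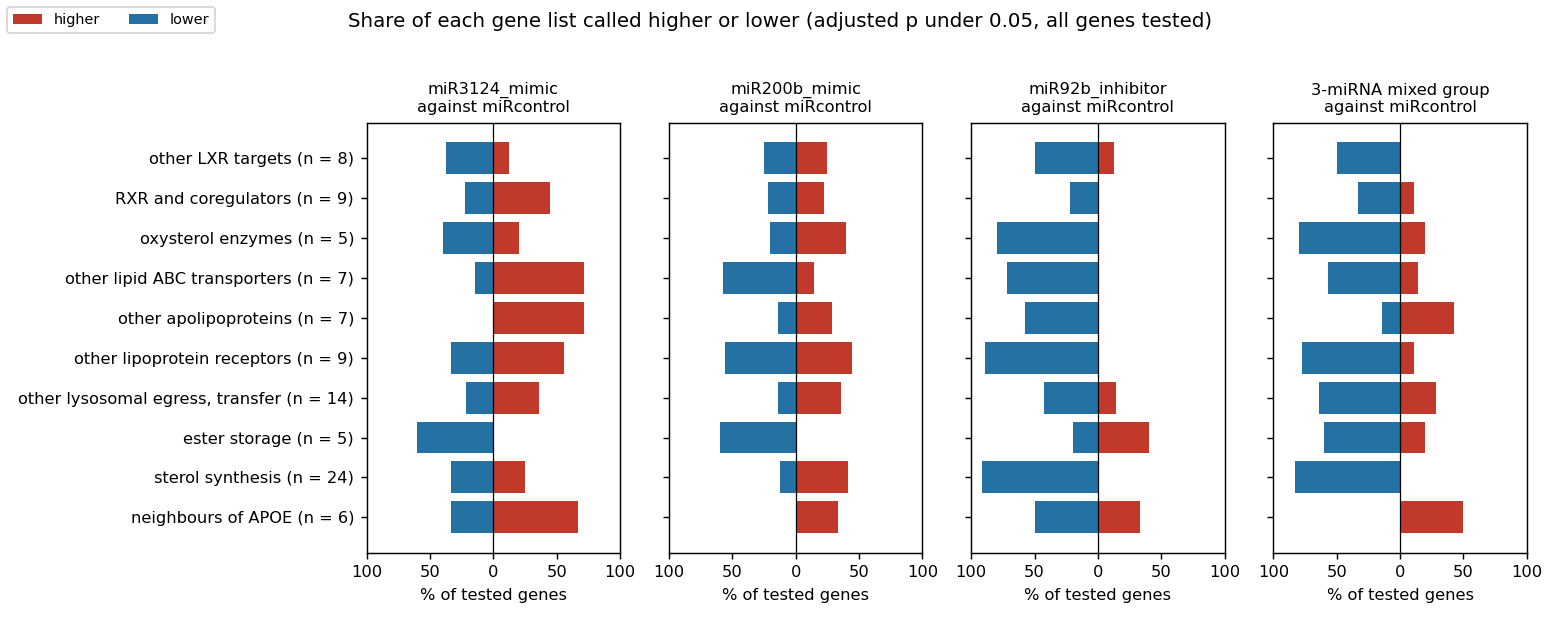
Percent of the tested genes of each pathway list, without the 9 genes, that were called higher (right) or lower (left) than miRcontrol in each group at an adjusted p of 0.05. Sterol synthesis and lipoprotein receptor genes lie almost wholly on the lower side in miR92b_inhibitor and in the mixture. The oxysterol enzyme bars include CYP11A1, which passed the filter only through miR3124_mimic and the mixture. The apolipoprotein bars include SNTB2, which is not an apolipoprotein gene.

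The genes whose levels were most like those of ABCA1 over the 10 libraries were CDC25A (Pearson r = 0.983), ITGA2 (0.964), KBTBD8 (0.963), TGFA (0.959) and PMEPA1 (0.957), out of 2551 genes compared on log2 CPM. CDC25A averaged 67.7 CPM in miRcontrol, 76.9 in miR92b_inhibitor, 87.3 in miR3124_mimic, 114 in the mixture and 119 in miR200b_mimic, the same order as ABCA1. For APOE they were BRWD1 (0.959), KDM7A (0.958), RWDD2A (0.952), ZNF493 (0.949) and SUSD1 (0.945), out of 2552. BRWD1 averaged 186 CPM in miR3124_mimic, 143 in the mixture, 108 in miR92b_inhibitor, 105 in miR200b_mimic and 103 in miRcontrol. These correlations are descriptions over 10 libraries that fall into 5 groups and share their depth and processing.

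Because macrophages and hepatocytes are the cells in which these genes are best known, markers of both were examined, together with those of epithelial and mesenchymal cells. Of 10 macrophage genes, CD163, TYROBP and AIF1 had 0 counts in all libraries. The summed level was 27.6 to 28.8 CPM in miRcontrol, 36.9 to 37.2 CPM in miR3124_mimic, 18.3 to 20.7 CPM in miR200b_mimic, 40.6 to 42.5 CPM in miR92b_inhibitor and 25.0 to 26.3 CPM in the mixture. Most of it was CD68, which averaged 26.7 CPM in miRcontrol, 23.6 CPM in miR3124_mimic and 39.7 CPM in miR92b_inhibitor. CD14 rose from 0.801 and 1.43 CPM in miRcontrol to 12.7 and 12.4 CPM in miR3124_mimic (3.49, adjusted p = 7.96e-18). CSF1R had 2 and 3 counts in miRcontrol and 11 and 15 counts in miR3124_mimic, the only group through which it passed the filter. PTPRC, MARCO and MSR1 had at most 3 counts in any library. The 6 hepatocyte genes summed to at most 2.42 CPM in any library, with TTR and APOB at 0. The 8 epithelial genes summed to 1446 to 1464 CPM in miRcontrol, 1404 to 1462 CPM in miR92b_inhibitor, 1949 to 1962 CPM in miR3124_mimic, 2643 to 2649 CPM in the mixture and 2675 to 2715 CPM in miR200b_mimic. Nearly all of it was KRT8 and KRT18. The defining epithelial gene CDH1 went from 3 and 2 counts in miRcontrol to 146 and 157 counts with the miR-200b mimic and 46 and 36 in the mixture, beside 3 and 7 with the miR-3124 mimic. EPCAM, another, had 137 and 175 counts with the miR-200b mimic, 103 and 98 in the mixture and at most 8 in any other library. KRT19 fell by 3.40 on the log2 scale in miR3124_mimic (adjusted p = 8.31e-17), where the summed level was higher. The 8 mesenchymal genes summed to 7450 to 7475 CPM in miRcontrol and 6985 to 7127 CPM in miR92b_inhibitor, and to 4530 to 4655, 5049 to 5070 and 4700 to 4757 CPM in miR3124_mimic, the mixture and miR200b_mimic. VIM fell by 2.23 in miR3124_mimic (adjusted p = 2.77e-42) and FN1 by 1.21 in miR200b_mimic (adjusted p = 4.58e-31). VIM averaged 3800 CPM in miRcontrol and 813 CPM in miR3124_mimic, which was most of the lower sum there. COL1A1 rose by 0.99 and ZEB2 by 0.53 in miR3124_mimic, where SNAI2 fell by 1.12, and COL1A1 rose by 1.62 in miR200b_mimic. ZEB2 averaged 32.3 CPM in miRcontrol but 6.70 CPM in miR200b_mimic and 10.2 CPM in the mixture. ZEB1 averaged 63.1, 25.7 and 29.1 CPM in the same order. SNAI2 went the other way there, with 23.2, 43.7 and 33.3 CPM. Of the 8 genes, 2 rose and 2 fell in miR3124_mimic (background called 51%). In miR200b_mimic 2 rose and 5 fell (40.6%). The part of these shifts in the values of the efflux genes was not tested, and in bulk libraries fewer cells of a type and less RNA per cell cannot be told apart.

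Depth was even, with 13587666 to 18503890 counts per library, and the 2 libraries of a group differed by more than sampling noise (chi-square over its degrees of freedom 1.78 to 2.76). The standard error of a log2 change against miRcontrol was 0.04 for NPC1 and between 0.43 and 0.60 for ABCG1 and APOC1, so that the precision followed the counts behind each gene.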

How the data were processed

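The authors sequenced poly(A)-selected, strand-specific libraries (NEBNext Ultra II Directional, paired-end reads of 100 bases), trimmed the reads, aligned them with TopHat to GRCh38 per the labels, and deposited raw read counts per gene symbol. The counting tool, annotation and strand setting were not given in the sources used here. Each file held 58173 rows. Rows that repeated a symbol (5771) were summed, giving 52402 symbols. The deposited counts were tested with the edgeR 4.0.16 quasi-likelihood test (limma 3.58.1, R 4.3.3) in a fit of all 10 libraries without covariates, with RLE scaling and filterByExpr (minimum count 10). A gene was called at a Benjamini-Hochberg adjusted p under 0.05 over 14884 genes. Errors of log2 changes are standard errors. CPM are scaled by RLE, and levels between genes were compared per kilobase of merged GENCODE v29 exons, which includes exons these cells may not use. The fit was tested on simulated data. Genes and lists were chosen with earlier results of these data known. From each list the text names genes past an adjusted p of 0.05 and 2-fold against miRcontrol, and up to 3 of high level. For ABCA1 and APOE the 5 genes of highest r were taken among genes whose mean CPM reached 5 and whose log2 CPM had an SD from 0.3 upward. Other genes of a list were named after their values were seen. Some genes of these lists are counted but not reported here by name. Alternatives were TMM scaling, library totals, other filters, DESeq2 1.42.0, a replicate block, a fit of the compared groups only, and leaving out each library. Replicate numbers did not pair the libraries (r from -0.0616 to 0.0615 over 10419 genes).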

Additional observations from a re-analysis of the deposited data

How the results depend on the processing

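No called value of the 9 genes changed direction under TMM scaling, library totals alone, no filter, DESeq2, the fit of the compared groups, the replicate block or the omission of any library. Of the values that were not called, 24 changed sign when a library was left out, most of them of APOC1, APOE and ABCG1, and 0 did under the other settings. All counts over all genes stayed within 1.5 times the value given. List counts were recomputed only with TMM scaling and with at least 10 counts in every library. This was done for the pathway lists with the efflux genes included, and those counts also stayed within 1.5 times their value in the main fit. The marker lists and the lists without the efflux genes were not recomputed. Counts of efflux genes moved further in a pair of comparisons when a library was left out: those called in miR92b_inhibitor against miRcontrol ranged from 2 to 4, and those called for the departure of the mixture from the summed changes from 1 to 3. With DESeq2, 2 rather than 4 genes, ABCG1 counted, were called between the mixture and miR3124_mimic. The cause was not tested. With the replicate block, 98 of 99 values of the efflux genes kept their call, and NR1H2 between miR200b_mimic and miR92b_inhibitor passed with an adjusted p of 0.0447 and a difference of 0.13. With at least 10 counts in every library, ABCG1 and APOC1 were not tested, and the other 77 values kept their calls. The fit of the compared groups was not run for the departure, which uses all groups. Searching every coding transcript for seed words gave the same genes as the longest transcript did. Low counts limit ABCG1, APOC1, NR1H3 and APOE, for which a difference of 2-fold could pass unseen.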
